A study of Mus musculus with 20 samples.

Results

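Glucose uptake, glycolysis, pyruvate and glycogen metabolism were described through 38 genes, chosen by symbol in the expression table of 11856 protein-coding genes and by gene name in the m6A peak lists. All 38 were present in the table, and all 38 reached the minimum mean for testing, 1 FPKM over the 10 hearts. Hearts of 5 db/db mice were compared with hearts of 5 db/+ mice, all on the C57BL/6 background. The db/db animals carry the db allele of the leptin receptor on both chromosomes and become obese and diabetic, and the db/+ animals are heterozygous and stay lean. The genotype field of the labels calls the db/+ animals wild type, while their titles and source name say db/+, which was followed here. The labels as used here give no age, sex or pooling. The leptin receptor gene was not analysed here, so no gene checked the genotype labels. From each heart both input RNA and RNA enriched by an antibody against N6-methyladenosine (m6A), a methyl mark on adenosines of messenger RNA, were sequenced, which made 20 libraries. Poly(A) RNA was used for both.

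Glucose enters muscle cells through transporters of the GLUT family, of which GLUT4 moves to the cell surface on insulin. Hexokinase traps it as glucose 6-phosphate, which is stored as glycogen or broken down by glycolysis to pyruvate. Pyruvate is turned to lactate, oxidised in mitochondria through the pyruvate dehydrogenase complex, or carboxylated to oxaloacetate by pyruvate carboxylase. Pyruvate dehydrogenase kinases switch the complex off by phosphorylation and phosphatases switch it on again. Adult heart muscle burns mainly fatty acids, and in diabetes its use of glucose is known to be reduced.

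Expression was read as FPKM, fragments scaled to transcript length and to the size of the library, so that levels of different genes can be set side by side on a per-length scale. Since FPKM values carry no read counts, sequencing depth could not be given. The FPKM of a library summed to between 307868.8 and 340468.3, and transcripts of the mitochondrial genome took 42.0% to 44.7% of it in db/db hearts and 33.5% to 43.3% in db/+ hearts, with heart db/+ 5 the lowest. Heart db/+ 5 was the lowest or the highest of its genotype in 25 of the 38 genes (65.8%, against 53.8% of all genes tested), and its peak list was the longest, while that of db/db 5 was the shortest. All 10 cardiomyocyte markers were present, with a summed level of 13090.7 to 14471.2 FPKM in db/db hearts and 14344.4 to 17980.5 FPKM in db/+ hearts. Of 10 fast skeletal muscle markers, 4 were in the table, none reached the mean for testing, and their sum was 1.87 to 4.78 FPKM in db/db hearts and 1.47 to 3.27 FPKM in db/+ hearts. Fold changes are db/db over db/+, on the scale of log2(FPKM + 1), which understates changes of low genes. The threshold for a call was 0.05, on p-values from limma with Benjamini-Hochberg adjustment over all 10344 genes tested. The labels number the animals but do not say that they are independent litters, so p-values measure the spread between these animals.

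Of the 38 genes, 4 fell in db/db hearts: Slc2a4, the insulin-responsive glucose transporter, Eno3, muscle enolase, Pdp2, a phosphatase that activates pyruvate dehydrogenase, and Pcx, pyruvate carboxylase. None of the 38 was called higher. Over all genes tested, 1.72% were called lower and 1.29% were called higher, 3.01% in all. Without db/+ 5 and db/db 5, a choice made after seeing the data, 5 of the 38 were lower and none was higher, and without db/+ 5 alone 5 were lower and 2 higher. Without both, 168 of all 10351 genes tested were lower and 201 higher. Without db/+ 5 alone, 177 of 10325 were lower and 138 higher. Slc2a4 and Pcx were called under all 21 alternatives tried, Pdp2 under all 20 that kept it, and Eno3 under 20 of 21. The 4 genes sit at 4 different steps, 1 each at uptake, glycolysis, control of pyruvate dehydrogenase and carboxylation. Of the other 34, 4 had adjusted p-values between 0.05 and 0.1, the glycolytic regulator Pfkfb2, the kinase Pdk2, the lactate dehydrogenase gene Ldhb and the hexokinase gene Hk2, all with negative fold changes. At an unadjusted p under 0.05 there were 12 lower and 2 higher genes among the 38, where 19.3% of all genes tested passed in either direction. The fold change was negative in 27 genes and positive in 11, so 71.1% were negative, against 57.6% of all genes tested. The median log2 fold change was -0.09 over the 38 genes and -0.03 over all genes tested. In 6 of the 38 genes every db/db heart lay below every db/+ heart, namely the 4 called genes, Pfkfb2 and Pdk2, where 4.18% of all genes tested did so. In none did every db/db heart lie above every db/+ heart, which held for 2.23% of all genes.

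**Figure D1:**
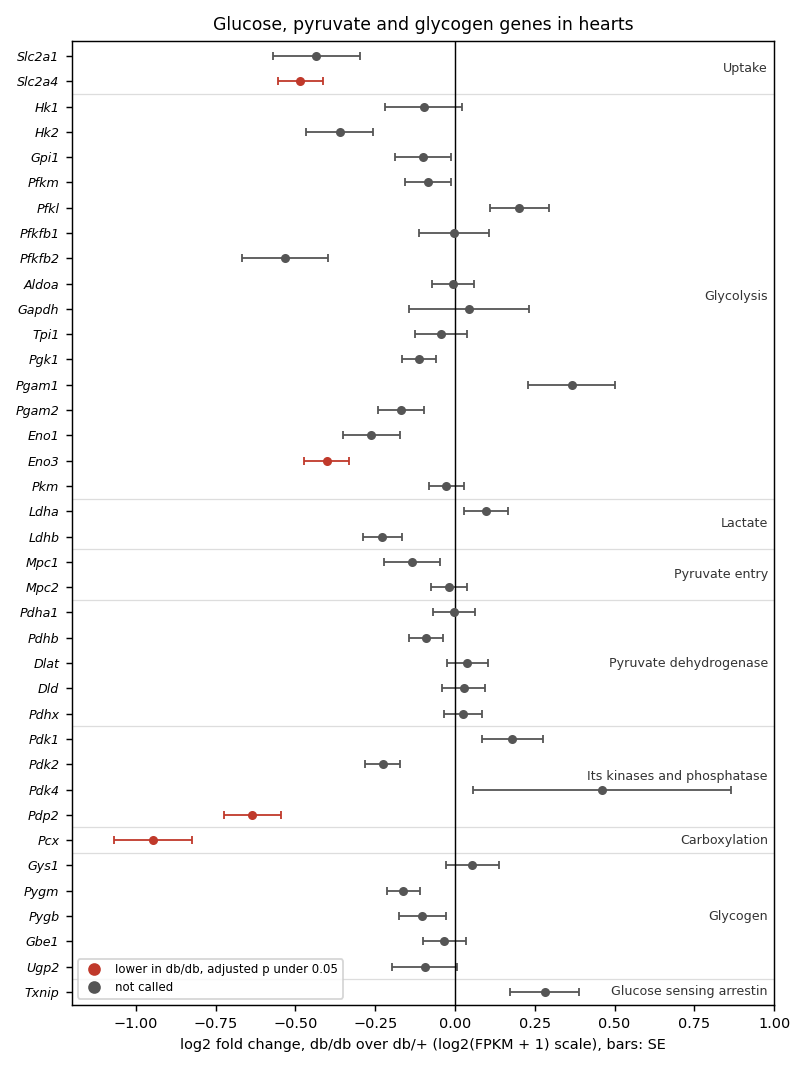
Log2 fold change of each of the 38 genes, db/db over db/+, on the log2(FPKM + 1) scale (x axis), with genes ordered by metabolic step (y axis). Points are limma estimates from 5 db/db and 5 db/+ hearts, bars are standard errors, and red points are the 4 genes called lower, Slc2a4, Eno3, Pdp2 and Pcx.

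At uptake, the GLUT4 gene Slc2a4 fell. It had 48.0, 47.4, 42.8, 51.5 and 51.9 FPKM in the db/db hearts, against 75.4, 64.8, 65.2, 63.5 and 70.7 FPKM in the db/+ hearts. The highest db/db heart was thus well below the lowest db/+ heart. The means were 48.3 ± 3.69 FPKM in db/db and 67.9 ± 5.03 FPKM in db/+ hearts (SD, n = 5 each), a change of the mean by -28.9% (log2 fold change -0.48, SE 0.071, limma adjusted p = 0.0059). Slc2a1, which encodes GLUT1, the transporter of basal uptake, was expressed far below it in both genotypes. Slc2a1 had 3.20, 1.92, 2.07, 3.01 and 2.92 FPKM in db/db hearts, against 3.72, 4.52, 3.14, 3.15 and 4.97 FPKM in db/+ hearts. These overlap only through heart db/db 1, and the difference did not pass (log2 fold change -0.43, SE 0.136, limma adjusted p = 0.113). The ratio of Slc2a4 to Slc2a1 was 14.99 to 24.6 in db/db hearts and 14.2 to 20.8 in db/+ hearts, and the ranges overlapped except that db/db 2 lay above every db/+ heart.

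Slc2a4 lies on chr11:69942539-69948188, minus strand, in coordinates that fit the mouse build GRCm38. Its m6A peak was found in all 10 hearts at the same place, chr11:69942543-69942751, in the 3′ untranslated region (3′UTR) at the end of the transcript. The fold enrichment of that peak, the authors' ratio of pulled-down to input signal, was 3.68, 3.58, 3.34, 2.89 and 3.34 in db/db hearts and 2.73, 2.88, 3.35, 4.36 and 4.46 in db/+ hearts. These values come from separate lists and are given here and below as descriptions, with no test between genotypes. Folds are not on one scale across lists. The same fold of 3.34 was reached or passed by 31.79% of all peaks in db/db 5 and by 58.66% in db/db 3. A lower or higher fold in 1 genotype thus cannot be read as less or more of the mark. Where a heart had several peaks in a region, the fold of the region is the highest of them. The mark was thus listed in every heart of both genotypes. Slc2a1 had a 3′UTR peak in 2 db/db and 2 db/+ hearts.

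In bulk heart RNA, fewer cells of a type and less RNA per cell cannot be told apart. Beside the lower level of the muscle genes Slc2a4 and Eno3, 3 of the 10 cardiomyocyte markers were called lower as well, Myl2, Myl3 and Ckm, which encode ventricular myosin light chains and muscle creatine kinase, and all 10 had negative fold changes with a median log2 value of -0.13. Ckm was at 338.9 ± 18.9 FPKM in db/db and 441.8 ± 23.1 FPKM in db/+ hearts (SD, n = 5 each), a log2 fold change of -0.38. Of the 6 genes listed as smooth muscle and pericyte markers, Abcc9 was called lower. In that list 4 had positive and 2 negative fold changes, with a median log2 value of 0.18, so Abcc9 does not stand for the list. None of the atrial, brown adipocyte, endothelial, fibroblast, macrophage or erythroid markers was called. The part of this shift in the results for the glucose genes was not tested.

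In glycolysis, 1 of 16 genes was called lower and 15 were not called, which does not show that their levels were alike. Eno3, the muscle form of enolase, which makes phosphoenolpyruvate, had 342.3, 300.9, 386.3, 326.1 and 325.1 FPKM in db/db hearts, against 451.5, 404.5, 464.7, 444.6 and 452.6 FPKM in db/+ hearts. No heart overlapped, although db/db 3 came close to db/+ 2. Eno3 averaged 336.2 ± 31.7 FPKM in db/db and 443.6 ± 23.0 FPKM in db/+ hearts (SD, n = 5 each; log2 fold change -0.40, SE 0.069, limma adjusted p = 0.0134). The call was lost with the mitochondrial share of FPKM as a covariate (log2 fold change -0.39, limma adjusted p = 0.0612). Eno1, the widely expressed enolase, was at 16.9 ± 1.18 FPKM in db/db and 20.6 ± 2.73 FPKM in db/+ hearts (SD, n = 5 each; log2 fold change -0.26, limma adjusted p = 0.132). Eno3 was thus far above Eno1 on the FPKM scale in either genotype. Eno1 has near-identical processed copies in the genome, so its values are uncertain where reads were shared.

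Eno3 lies on chr11:70657202-70662513, plus strand. The 250 bases before its RefSeq start (chr11:70656926-70657175, plus strand, GRCm38.p6) are shown with a nuclear receptor half-site, AGGTCA, in capitals, which begins at position -114 from the start. It is shown because Eno3 was called lower, as were Pdp2 and Pcx, whose promoters follow. Slc2a4, the other called gene, had no entry among the promoters used here.
Eno3 promoter: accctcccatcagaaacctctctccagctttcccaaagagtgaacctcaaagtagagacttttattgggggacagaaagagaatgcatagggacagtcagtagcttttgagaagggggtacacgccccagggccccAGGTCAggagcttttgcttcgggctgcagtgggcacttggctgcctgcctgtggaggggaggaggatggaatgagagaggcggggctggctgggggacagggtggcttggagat
Of all 32851 RefSeq promoters of this length, 14.02% held AGGTCA on either strand, and among the 57 promoters of the 37 genes matched here 9 did, so the match is a description of letters and not of a bound site.

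At the entry of glycolysis, Hk2, the insulin-regulated muscle hexokinase, had 33.4, 31.4, 27.8, 34.7 and 37.2 FPKM in db/db hearts, against 44.3, 33.8, 44.9, 40.8 and 49.5 FPKM in db/+ hearts. Heart db/+ 2 lay inside the db/db range and the other db/+ hearts lay above it. The difference did not pass with all hearts (log2 fold change -0.36, SE 0.104, limma adjusted p = 0.0891) and passed without db/+ 2 (log2 fold change -0.44, limma adjusted p = 0.0354). Hk1, the constitutive hexokinase, was at 15.4 ± 1.69 FPKM in db/db and 16.7 ± 3.11 FPKM in db/+ hearts (SD, n = 5 each; log2 fold change -0.10, limma adjusted p = 0.706). Gpi1, which converts glucose 6-phosphate to fructose 6-phosphate, was at 35.2 to 42.8 FPKM in db/db hearts and 37.0 to 47.6 FPKM in db/+ hearts.

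The regulated step of glycolysis is phosphofructokinase, whose muscle subunit Pfkm was at 214.9 to 247.4 FPKM in db/db hearts and 215.1 to 275.5 FPKM in db/+ hearts. Its liver-type subunit Pfkl was far lower on the FPKM scale, at 16.1 to 18.8 FPKM in db/db and 13.6 to 19.3 FPKM in db/+ hearts, where db/+ 5 stood above the other 4 db/+ hearts at 13.6 to 14.5 FPKM. Pfkl was not called with all hearts (log2 fold change 0.20, SE 0.093, limma adjusted p = 0.26) and was called higher without db/+ 5 (log2 fold change 0.29, limma adjusted p = 0.037). Pfkfb2 encodes the heart form of the enzyme that makes fructose 2,6-bisphosphate, the activator of phosphofructokinase, and it is known as a target of insulin signalling. Pfkfb2 had 4.31, 7.04, 6.29, 4.11 and 6.91 FPKM in db/db hearts, against 9.31, 7.67, 9.33, 8.35 and 8.23 FPKM in db/+ hearts. The groups did not overlap, with db/db 1 and db/db 4 the lowest, and the difference missed the threshold (log2 fold change -0.53, SE 0.134, limma adjusted p = 0.0561). Pfkfb2 was called without db/db 5, with a minimum mean of 5 FPKM and with sample weights. Its isoenzyme gene Pfkfb1 was at 3.22 to 5.26 FPKM in db/db and 3.95 to 5.30 FPKM in db/+ hearts.

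Among the enzymes that follow, Aldoa, aldolase, was at 335.7 to 358.1 FPKM in db/db and 320.9 to 402.5 FPKM in db/+ hearts. Tpi1, triosephosphate isomerase, was at 137.6 to 159.4 FPKM in db/db and 132.0 to 177.9 FPKM in db/+ hearts. Pgk1, phosphoglycerate kinase, was at 122.5 to 130.7 FPKM in db/db and 130.6 to 147.8 FPKM in db/+ hearts. These 3 had log2 fold changes between -0.11 and -0.01, and none passed. Gapdh, glyceraldehyde 3-phosphate dehydrogenase and a common reference gene, spread widely within each genotype, at 99.4 to 157.9 FPKM in db/db and 86.5 to 166.8 FPKM in db/+ hearts (log2 fold change 0.04, SE 0.187). Gapdh, Pgk1, Pgam1 and Eno1 have near-identical processed copies in the mouse genome, so their values are uncertain where reads were shared.

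Phosphoglycerate mutase has a muscle form, Pgam2, and a general form, Pgam1. Pgam2 was at 357.5 to 418.0 FPKM in db/db and 399.3 to 512.8 FPKM in db/+ hearts (log2 fold change -0.17, limma adjusted p = 0.224). Pgam1 had 33.3, 36.3, 33.7, 37.6 and 34.4 FPKM in db/db hearts, against 19.1, 29.3, 28.3, 24.3 and 36.9 FPKM in db/+ hearts. All db/+ hearts but db/+ 5 lay below the db/db range. Pgam1 was not called with all hearts (log2 fold change 0.37, SE 0.136, limma adjusted p = 0.171), and was called higher without db/+ 5 (log2 fold change 0.48, limma adjusted p = 0.0489) and with the mitochondrial share as a covariate (log2 fold change 0.63, limma adjusted p = 0.0469). Pkm, pyruvate kinase, which ends the pathway, was at 123.5 to 132.6 FPKM in db/db and 121.7 to 138.2 FPKM in db/+ hearts.

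Of the 16 glycolytic genes, 5 had an m6A peak in all 10 hearts, 5 had none in any heart and 6 lay between. Hk1, Hk2, Gpi1, Pkm and Pfkfb2 had a peak in all 10 hearts. Hk2 had a region marked in all 10 hearts at chr6:82726103-82732143 on the minus strand, with exon blocks that covered 2069 bases, in coding and 3′UTR sequence, with a fold of 2.71 to 5.53 in db/db hearts and 4.14 to 9.35 in db/+ hearts, and a further region at the very end of its 3′UTR in all 10 hearts, chr6:82725025-82725474. Hk1 had a coding region marked in all 10 hearts, chr10:62290304-62296753, minus strand. Gpi1 had 1 such region over the end of its coding sequence and 3′UTR, chr7:34202073-34202489, minus strand, and Pkm 1 in coding sequence, chr9:59669036-59671973, plus strand. The peak regions of Pfkfb2 were each in 9 hearts or fewer. Pfkl, in the 9 hearts other than db/db 5, and Pgam2, in the 9 hearts other than db/+ 5, came next.

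No peak was listed in any heart for Pfkfb1, Gapdh, Pgk1, Pgam1 and Eno1. Gapdh, Pgk1, Pgam1 and Eno1 are the genes with near-identical processed copies. Whether shared reads affected the listing of their peaks was not tested, so they cannot be taken as unmarked. Aldoa, Tpi1, Eno3 and Pfkm had peaks in 2 to 4 hearts, with folds between 1.18 and 1.59. The Eno3 peak, at the end of the transcript, was in 2 db/db and 2 db/+ hearts. The Pfkm peak was in 2 db/+ hearts and in no db/db heart. Such low folds in some hearts stand beside lists of very unequal length, from 8462 distinct peaks in db/db 5 to 20021 in db/+ 5, and the part of list length in them was not tested.

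Lactate dehydrogenase is a tetramer of the heart-type subunit of Ldhb and the muscle-type subunit of Ldha. Ldhb had 512.4, 474.3, 493.3, 512.4 and 544.3 FPKM in db/db hearts, against 604.3, 544.2, 599.4, 567.0 and 659.3 FPKM in db/+ hearts. The groups touched where db/db 5 met db/+ 2, and the difference did not pass (log2 fold change -0.23, SE 0.062, limma adjusted p = 0.0728), although it did with sample weights (limma adjusted p = 0.0488). Ldha was at 113.2 to 125.2 FPKM in db/db and 103.7 to 129.0 FPKM in db/+ hearts (log2 fold change 0.10, limma adjusted p = 0.468). The ratio of Ldhb to Ldha within a heart was 4.33, 4.19, 4.14, 4.09 and 4.39 in db/db hearts, against 5.73, 4.59, 5.70, 5.47 and 5.11 in db/+ hearts. Every db/db heart was below every db/+ heart in this ratio. Ldhb had a weak peak in 2 db/db hearts and 1 db/+ heart and Ldha in 1 db/+ heart, with folds of 1.36 to 1.83.

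The genotypes were apart in this way in 4 of 11 ratios of related genes, which were chosen after their values were seen and are given without a test. The share of other gene pairs that were apart was not computed, so the count has no background. Pfkfb2 and Pdk2, in 2 of the 4, were already apart by themselves. A ratio within a library does not depend on how that library was scaled. The ratio of Pgam2 to Pgam1 was 9.84 to 12.5 in db/db and 13.6 to 22.7 in db/+ hearts, with Pgam1 values uncertain where reads were shared. The ratio of Pfkfb2 to Pfkfb1 was 1.02 to 1.46 in db/db and 1.76 to 2.104 in db/+ hearts. The ratio of Pdk2 to Pdk1 was 2.33 to 2.86 in db/db and 2.97 to 4.25 in db/+ hearts. In each of these ratios every db/db heart was below every db/+ heart. The other 7 ratios overlapped, among them Hk2 to Hk1 at 1.60 to 2.70 in db/db and 1.68 to 3.49 in db/+ hearts, Eno3 to Eno1 at 16.4 to 22.0 in db/db and 18.4 to 24.9 in db/+ hearts, and Pfkm to Pfkl at 11.4 to 14.5 in db/db and 13.3 to 19.3 in db/+ hearts. Eno1 values are uncertain in the same way as those of Pgam1.

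**Figure D2:**
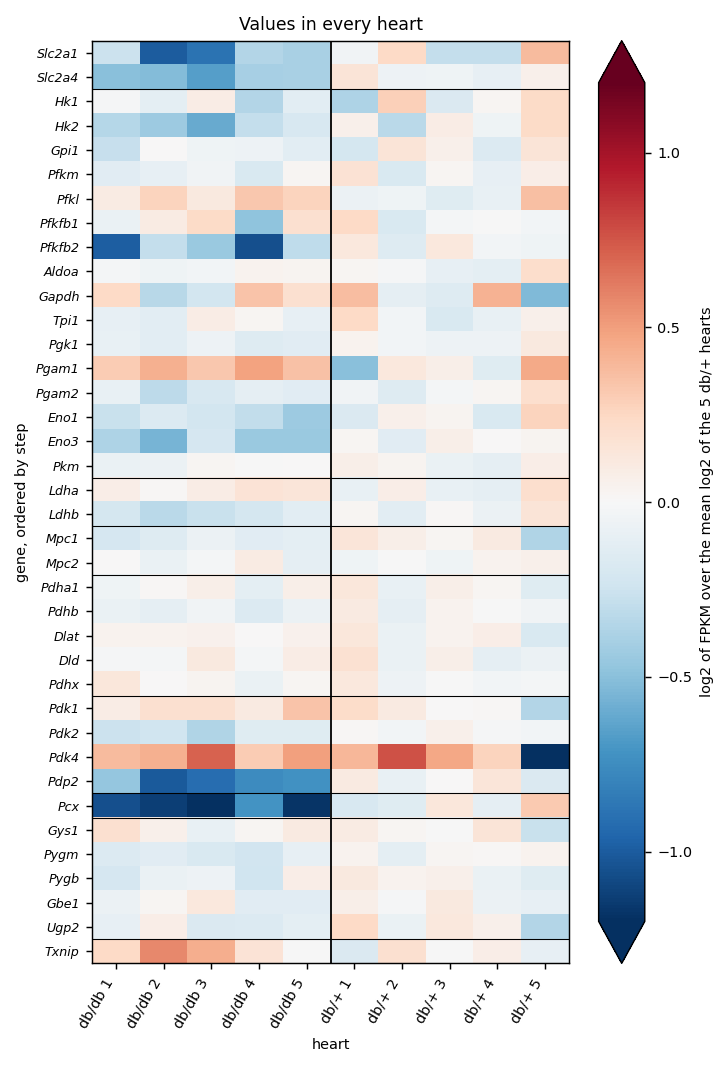
FPKM of the 38 genes (rows, by step) in each of the 5 db/db and 5 db/+ hearts (columns), as log2 of the value over the mean log2 of the db/+ hearts. Pcx, Pdp2 and Slc2a4 are blue in all 5 db/db hearts, and Pdk4 is dark blue only in db/+ 5, at 88.6 FPKM.

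Pyruvate enters mitochondria through a carrier made of the products of Mpc1 and Mpc2. Mpc1 was at 81.7 to 89.8 FPKM in db/db hearts and at 104.3, 99.0, 95.9, 101.4 and 73.5 FPKM in db/+ hearts. The first 4 db/+ hearts lay above all db/db hearts and db/+ 5 below them, so that Mpc1 was not called with all hearts (log2 fold change -0.13, limma adjusted p = 0.431) and was called lower without db/+ 5 (log2 fold change -0.22, limma adjusted p = 0.037). Mpc2 was at 33.7 to 39.0 FPKM in db/db and 35.1 to 37.9 FPKM in db/+ hearts. Mpc1 had no m6A peak, and Mpc2 had one in 3 db/+ hearts and no db/db heart.

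None of the 5 genes of the pyruvate dehydrogenase complex was called, and their log2 fold changes lay between -0.09 and 0.04. Pdha1, the catalytic subunit that is phosphorylated, was at 285.0 to 325.8 FPKM in db/db and 280.5 to 341.1 FPKM in db/+ hearts. Pdhb, its partner subunit, was at 117.1 to 127.8 FPKM in db/db and 122.2 to 141.5 FPKM in db/+ hearts. The acetyltransferase gene Dlat was at 66.3 to 68.6 FPKM in db/db and 58.3 to 72.9 FPKM in db/+ hearts. For none of these did the ranges separate, and the change of the mean was largest for Pdhb, at -6.25%. Dld, the lipoamide dehydrogenase shared with other complexes, was at 138.3 to 152.7 FPKM in db/db and 131.0 to 160.3 FPKM in db/+ hearts, and the binding protein gene Pdhx at 29.4 to 34.0 FPKM in db/db and 29.6 to 33.9 FPKM in db/+ hearts.

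Most genes of the complex were marked in each heart. Pdha1, Pdhb, Dld and Pdhx had peaks in all 10 hearts and Dlat in 1 db/db and 3 db/+ hearts. The Dld region, chr12:31331546-31340329 on the minus strand, had a fold of 2.19 to 3.86 in db/db hearts and 3.17 to 6.18 in db/+ hearts. The Pdhx region, chr2:103021075-103022119 on the minus strand, had folds of 3.18, 3.14, 2.80, 2.98 and 3.30 in db/db hearts, against 2.85, 3.14, 9.17, 13.5 and 9.96 in db/+ hearts. The highest values were in 3 of the db/+ hearts. Pdhb was marked in its 3′UTR in all 10 hearts, chr14:8165996-8166263, minus strand.

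Pdha1 held the one region of the 38 genes whose peak was listed in 4 or 5 hearts of one genotype and in no more than 1 of the other. At the end of its 3′UTR, chrX:160122209-160122509 on the minus strand, a peak was listed in 1 db/db heart, with a fold of 1.54, and in all 5 db/+ hearts, with folds of 1.99, 1.67, 1.86, 1.66 and 2.78. Fisher's exact test gave an unadjusted two-sided p of 0.0476 and an adjusted p of 1 over 15747 regions. Of all regions, 1.11% were in at least 4 db/+ and at most 1 db/db hearts, and 0.578% were the other way round. A further Pdha1 region, chrX:160123138-160127683, was marked in all 10 hearts with folds of 1.29 to 1.43 in db/db and 1.31 to 1.94 in db/+ hearts.

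Among the regulators of the complex, Pdp2 fell. Its product is a phosphatase that removes the inactivating phosphate, and its protein is known to be reduced in the heart of diabetic rats. Pdp2 had 4.47, 3.07, 3.27, 3.66 and 3.72 FPKM in db/db hearts, against 6.62, 5.79, 6.196, 6.82 and 5.47 FPKM in db/+ hearts. The highest db/db heart, db/db 1, was below the lowest db/+ heart, db/+ 5. Pdp2 averaged 3.64 ± 0.538 FPKM in db/db and 6.18 ± 0.562 FPKM in db/+ hearts (SD, n = 5 each), a change of the mean by -41.2% (log2 fold change -0.64, SE 0.089, limma adjusted p = 0.00505). It is a low gene, and a minimum mean of 5 FPKM would remove it. Its transcript was marked in 4 db/db and all 5 db/+ hearts, at chr8:104594803-104595611 on the plus strand, over the coding end and 3′UTR, with folds of 5.13 to 10.4 in the marked db/db hearts and 3.13 to 18.6 in db/+ hearts.

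Pdp2 lies on chr8:104591451-104599026, plus strand. Its promoter (chr8:104591222-104591471, plus strand, RefSeq, GRCm38.p6) held an E-box, CACGTG, a motif bound by several basic helix-loop-helix factors, in capitals here, which begins at position -219 from the start.
Pdp2 promoter: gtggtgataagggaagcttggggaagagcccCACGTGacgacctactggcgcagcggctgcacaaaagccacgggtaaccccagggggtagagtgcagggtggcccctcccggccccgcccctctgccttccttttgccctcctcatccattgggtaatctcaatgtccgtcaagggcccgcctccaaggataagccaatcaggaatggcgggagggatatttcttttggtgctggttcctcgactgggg
Of all RefSeq promoters, 6.02% held CACGTG, a palindrome that reads the same on both strands, and 6 of the 57 promoters of the genes described here did, those of Ldha, Pcx, Pdk2, Pdp2, Pfkfb2 and Pfkm.

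Of the pyruvate dehydrogenase kinases, none was called. Pdk2, which is widely expressed, had 68.5, 69.2, 63.7, 73.8 and 73.9 FPKM in db/db hearts, against 82.7, 80.1, 85.2, 81.1 and 79.7 FPKM in db/+ hearts. These values did not overlap, and the difference just missed the threshold (log2 fold change -0.23, SE 0.056, limma adjusted p = 0.0516). Pdk2 was called with a minimum mean of 5 FPKM, with sample weights and without db/+ 5 and db/db 5. Pdk1 was at 25.4 to 30.3 FPKM in db/db and 18.7 to 27.9 FPKM in db/+ hearts (log2 fold change 0.18, limma adjusted p = 0.327). Pdk4, the kinase that fasting and fatty acids induce through PPAR receptors, was the most abundant of the 3, at 430.1, 445.5, 541.3, 408.1 and 465.1 FPKM in db/db hearts, against 435.8, 562.8, 457.1, 399.1 and 88.6 FPKM in db/+ hearts. Outside heart db/+ 5 the groups overlapped fully, and the log2 fold change was 0.46 (SE 0.404, limma adjusted p = 0.571) with that heart and -0.01 without it.

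Pdk1 and Pdk4 were marked in their 3′UTRs in all 10 hearts. Pdk4 had a single long region, chr6:5483351-5485435 on the minus strand, with folds of 3.76, 3.68, 3.23, 3.09 and 2.81 in db/db hearts, against 3.79, 4.16, 4.85, 4.05 and 8.61 in db/+ hearts. The highest was in db/+ 5, the heart with the least of the transcript. Pdk1 had 2 regions marked in all hearts, chr2:71902150-71902809 and chr2:71903319-71903858, plus strand, and the one nearer the coding sequence reached a fold of 17.2 in db/db 2 and of 6.41 in db/+ 4. Pdk2 had a peak at its transcript end in 5 db/db and 4 db/+ hearts.

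**Figure D3:**
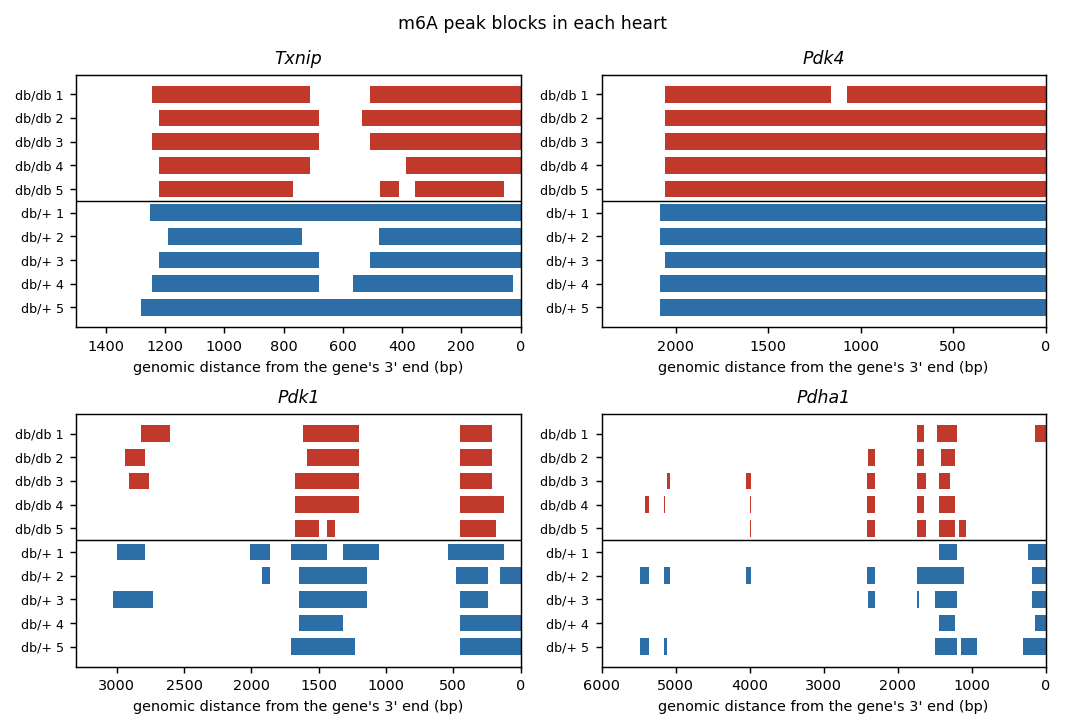
Exon blocks of the m6A peaks of Txnip, Pdk4, Pdk1 and Pdha1 in each heart, as genomic distance in bp from the 3′ end of the gene (x axis), with 5 db/db hearts (red) above 5 db/+ hearts (blue). Blocks near the 3′ end recur at the same place in all 10 hearts for Txnip, Pdk4 and Pdk1, while the block at the very end of Pdha1 is present in 1 db/db and 5 db/+ hearts.

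Pcx, pyruvate carboxylase, which refills the citric acid cycle with oxaloacetate, had the largest change among the 38 genes. It had 3.89, 3.71, 2.78, 4.92 and 3.58 FPKM in db/db hearts, against 7.08, 7.31, 8.89, 7.50 and 10.05 FPKM in db/+ hearts. The highest db/db heart was below the lowest db/+ heart by more than 2 FPKM. The change of the mean was -53.8% (log2 fold change -0.95, SE 0.122, limma adjusted p = 0.00329). Pcx is also abundant in fat, and the adipocyte markers differed between hearts. All 10 were in the table, and their summed level was 448.2 to 549.1 FPKM in db/db and 486.9 to 733.0 FPKM in db/+ hearts. Most of that sum was Lpl and Fabp4, with means of 280.6 and 183.3 FPKM in db/db and 328.6 and 177.3 FPKM in db/+ hearts. Of 9 tested, 7 had negative fold changes, and Cfd was called lower. Lep went the other way, at 0.343 to 7.14 FPKM in db/db and 0 to 0.629 FPKM in db/+ hearts (log2 fold change 1.43, limma adjusted p = 0.086). The hearts with the most Pcx, db/+ 5 and db/+ 3, were those with the highest mean log2 level of adipocyte markers, 4.42 and 4.24. With that mean, which left out the listed marker Pck1, as a covariate the log2 fold change of Pcx was -0.81 (SE 0.087, limma adjusted p = 0.00202). Cfd, a marker in that mean, was itself called lower, so this fit cannot separate fat content from genotype. The part of fat in the Pcx values was not tested. No m6A peak was listed for Pcx in any heart.

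Pcx lies on chr19:4510472-4621752, plus strand, and RefSeq gives it 2 start sites on GRCm38.p6. The promoter of the first (chr19:4510222-4510471, plus strand) held CACGTG, in capitals, at position -248, and that of the second (chr19:4594069-4594318, plus strand) held neither motif searched, CACGTG or AGGTCA. Which of them was used in these hearts cannot be read from values per gene.
Pcx promoter 1: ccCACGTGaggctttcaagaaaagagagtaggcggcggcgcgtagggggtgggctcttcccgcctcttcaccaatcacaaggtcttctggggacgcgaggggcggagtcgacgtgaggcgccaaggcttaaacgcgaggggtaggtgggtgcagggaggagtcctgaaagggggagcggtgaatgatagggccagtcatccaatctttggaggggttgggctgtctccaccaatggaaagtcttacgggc
Pcx promoter 2: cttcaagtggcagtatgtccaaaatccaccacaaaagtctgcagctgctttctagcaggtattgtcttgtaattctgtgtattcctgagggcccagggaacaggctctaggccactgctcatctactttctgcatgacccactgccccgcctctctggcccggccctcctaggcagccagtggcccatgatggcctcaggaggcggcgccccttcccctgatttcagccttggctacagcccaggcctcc

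**Figure D4:**
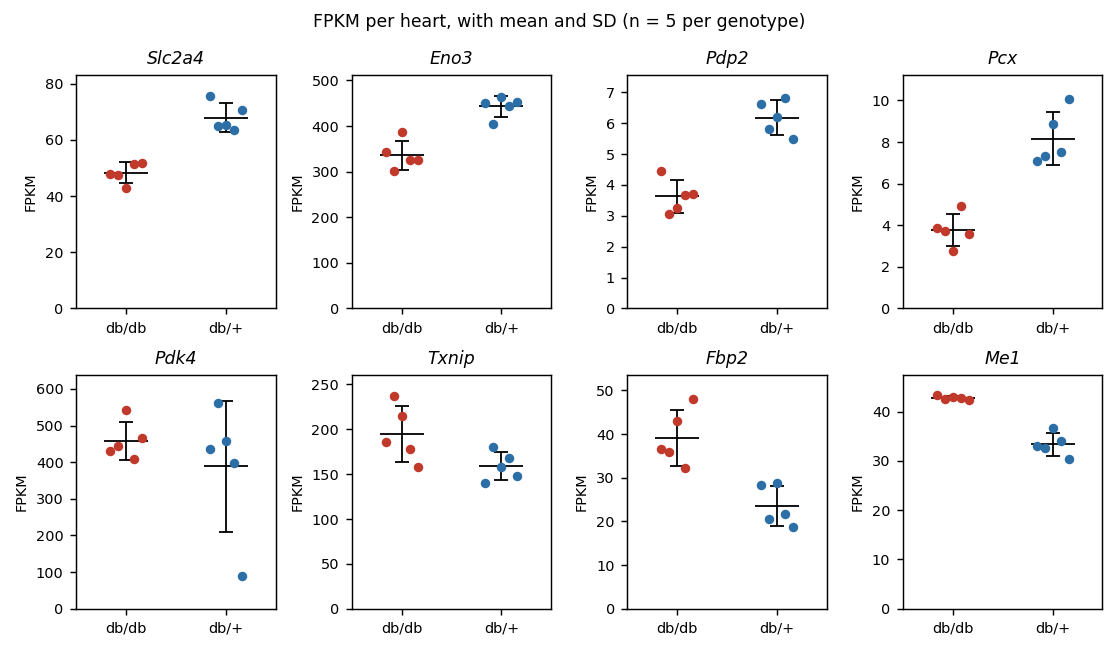
FPKM (y axis, from 0) of 8 genes in each of the 5 db/db hearts (red) and 5 db/+ hearts (blue), with the mean and SD as black lines. Slc2a4, Eno3, Pdp2 and Pcx lie lower in all db/db hearts, Fbp2 and Me1 lie higher in all db/db hearts, and the low point of Pdk4 is db/+ 5.

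None of the 5 glycogen genes was called. Pygm, muscle glycogen phosphorylase, which releases glucose from glycogen, was at 207.6 to 228.8 FPKM in db/db hearts and at 251.9, 224.6, 247.5, 246.9 and 250.8 FPKM in db/+ hearts. All db/+ hearts but db/+ 2 lay above the db/db hearts (log2 fold change -0.16, SE 0.052, limma adjusted p = 0.119). Pygb, the brain-type phosphorylase, was at 119.0 to 148.1 FPKM in db/db and 127.1 to 152.3 FPKM in db/+ hearts. Gys1, muscle glycogen synthase, was at 18.3 to 22.2 FPKM in db/db and 16.2 to 21.8 FPKM in db/+ hearts. The genotypes overlapped in both. Gbe1, the branching enzyme, was at 9.04 to 10.8 FPKM in db/db and 9.27 to 10.7 FPKM in db/+ hearts, and Ugp2, which makes UDP-glucose, at 73.0 to 87.2 FPKM in db/db and 64.6 to 97.6 FPKM in db/+ hearts. Pygm had a 3′UTR peak at the transcript end in all 10 hearts, chr19:6398339-6398459, plus strand, with folds of 1.39 to 1.62 in db/db and 1.39 to 1.71 in db/+ hearts. Gys1 had one in 4 db/db and 5 db/+ hearts and Ugp2 a 3′UTR region in 2 db/db and 5 db/+ hearts (Fisher's exact test, unadjusted p = 0.167, adjusted p = 1).

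Txnip encodes an arrestin that glucose induces and that limits glucose uptake by removing GLUT proteins from the cell surface. It had 186.3, 236.6, 214.4, 177.7 and 157.6 FPKM in db/db hearts, against 140.7, 180.8, 157.8, 167.5 and 147.8 FPKM in db/+ hearts. The db/db hearts reached higher, but db/db 5 and db/db 4 lay within the db/+ range, and the difference did not pass (log2 fold change 0.28, SE 0.108, limma adjusted p = 0.185). Its 3′UTR held the highest single fold of any region of the 38 genes. The region chr3:96560604-96561883 on the plus strand was marked in all 10 hearts, with folds of 4.77, 21.4, 11, 3.81 and 3.08 in db/db hearts, against 19.0, 8.98, 12.3, 4.03 and 6.23 in db/+ hearts. Between 2 and 5 peaks were listed there in a heart, and each value is the highest of these. The spread within each genotype covered that between the genotypes.

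Among the 38 genes, 31 (81.6%) had an m6A peak in at least 1 heart, against 66.7% of the genes of the expression table, and 14 (36.8%) in all 10 hearts, against 17.7%. These shares were not compared at equal expression. A peak was listed in 25, 20, 19, 23 and 22 of the genes in the db/db hearts and in 23, 23, 22, 21 and 28 in the db/+ hearts. The means were 21.8 ± 2.39 genes in db/db and 23.4 ± 2.70 genes in db/+ hearts (SD, n = 5 each), a difference below the spread. None of the 31 genes passed Fisher's exact test on the number of hearts with a peak, before or after adjustment, where 0.670% of all 8055 genes with a peak passed unadjusted and 0% after it. The smallest p that 5 against 5 hearts can give is 0.00794. It passes adjustment over 8055 genes only if very many of them separate completely, so the adjusted result cannot show that peaks were alike. Of 55 regions, 15 in 13 genes were marked in all 10 hearts, and 1 passed unadjusted and none after adjustment, where 0.673% of all regions passed unadjusted and 0% adjusted. Of the 15, 13 touched the 3′UTR. Of all peaks of the 38 genes, 52.2% lay in 3′UTR alone, against 36.4% over all genes, 36.7% in coding sequence alone, against 42.9%, 10% in both, against 17%, and 1.1% touched the 5′UTR, against 3.7%. These shares count overlapping peaks separately, so Hk1, Hk2 and Pfkfb2, with the most listed peaks, weigh most in them.

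**Figure D5:**
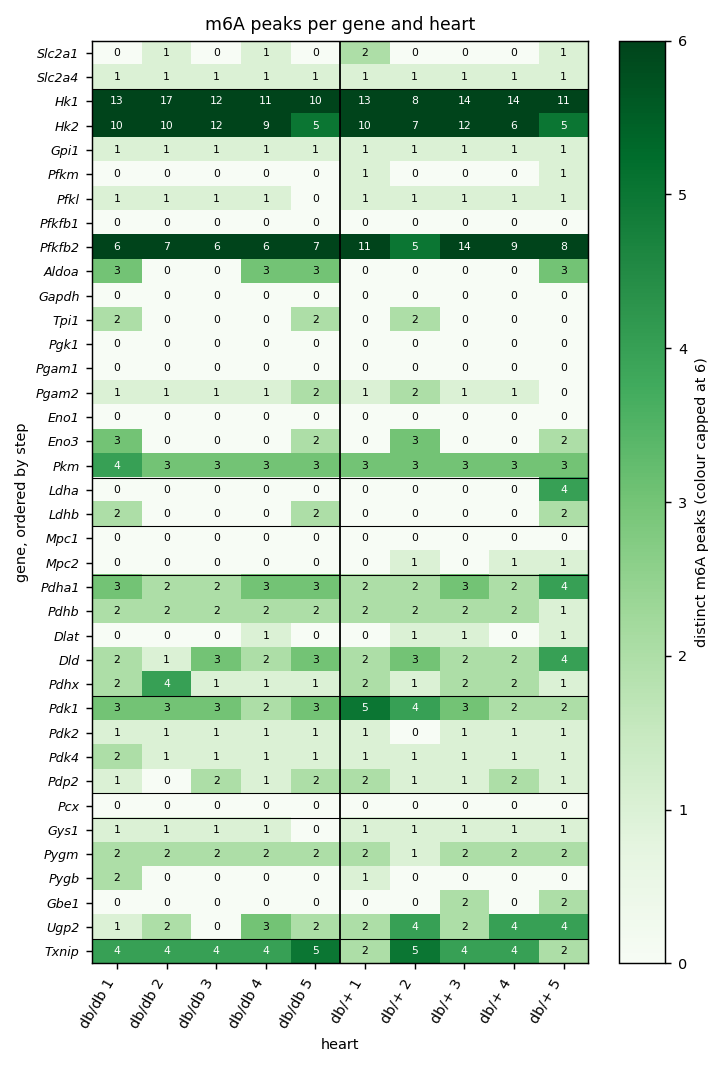
Number of distinct m6A peaks listed in each of the 38 genes (rows, by step) in the 5 db/db and 5 db/+ hearts (columns), with the colour capped at 6 peaks. Peaks that differ in start or end count separately, also where they overlap. Hk1, Hk2 and Pfkfb2 have at least 5 peaks in every heart, and 7 genes, Pfkfb1, Gapdh, Pgk1, Pgam1, Eno1, Mpc1 and Pcx, have none listed in any. Of these, Gapdh, Pgk1, Pgam1 and Eno1 have near-identical processed copies, whose part in this was not tested.

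Beyond the 38 genes, 91 further genes of glucose metabolism were listed, of which 81 were in the table and 76 were tested. Of these 2 rose in db/db hearts and none fell, where 1.29% of all genes tested were called higher and 1.72% lower. There were 31 positive and 45 negative fold changes, with a median of -0.02, where 57.6% of all genes tested were negative. These counts are thus near those over all genes. Both that rose are outside glycolysis proper. Fbp2, muscle fructose bisphosphatase, which runs the phosphofructokinase step backwards, had 36.5, 35.8, 42.9, 32.3 and 48.1 FPKM in db/db hearts, against 28.3, 20.5, 28.8, 21.7 and 18.7 FPKM in db/+ hearts (log2 fold change 0.71, SE 0.137, limma adjusted p = 0.0214). Me1, malic enzyme, which makes pyruvate from malate in the cytosol and supplies NADPH, had 43.3, 42.6, 43.0, 42.8 and 42.4 FPKM in db/db hearts, against 33.0, 32.7, 36.8, 34.1 and 30.4 FPKM in db/+ hearts (log2 fold change 0.35, SE 0.057, limma adjusted p = 0.00941). Every db/db heart was above every db/+ heart in both genes, which held for 2.23% of all genes tested. The call of Fbp2 was lost without db/db 3 (limma adjusted p = 0.0584), without db/+ 4 (limma adjusted p = 0.0511), and with the adipocyte markers as a covariate (limma adjusted p = 0.0557). Both calls were lost with the mitochondrial share as a covariate (limma adjusted p = 0.129 for Fbp2 and 0.061 for Me1).

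None of the genes in the other groups was called with all hearts. Some were called under alternatives, Slc2a12 under 4, Mlxipl and Ppp1r3c under 3 each, Gfpt2 under 2 and Gyg under 1. Of 9 further isoenzymes and transporters tested, Slc2a12, which encodes a second insulin-responsive transporter, was at 1.14 ± 0.171 FPKM in db/db and 2.05 ± 0.615 FPKM in db/+ hearts (SD, n = 5 each; log2 fold change -0.49, limma adjusted p = 0.0787), with db/+ 5 at 1.09 FPKM. It was called without db/+ 5 (log2 fold change -0.62, limma adjusted p = 0.00763). Bpgm, which makes the 2,3-bisphosphoglycerate of red cells, was at 6.35 to 13.2 FPKM in db/db and 5.25 to 7.89 FPKM in db/+ hearts, and its highest value, in db/db 4, stood beside the highest sum of the 5 erythroid markers, 3938.7 FPKM, whose part in it was not tested. Of 21 genes of glycogen regulation, Gyg, glycogenin, which primes glycogen, had 36.5, 39.0, 35.7, 38.2 and 34.3 FPKM in db/db hearts, against 45.1, 47.4, 40.6, 41.0 and 45.8 FPKM in db/+ hearts. Gyg did not overlap between genotypes (log2 fold change -0.25, SE 0.063, limma adjusted p = 0.0558). Ppp1r3c, a subunit that targets a phosphatase to glycogen, was at 37.1 to 48.6 FPKM in db/db and 24.7 to 41.6 FPKM in db/+ hearts (log2 fold change 0.45, limma adjusted p = 0.0882).

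Of the glucose sensing and transporter traffic genes, Mlxipl, the carbohydrate response factor ChREBP, was at 1.95 ± 0.535 FPKM in db/db and 3.17 ± 0.55 FPKM in db/+ hearts (SD, n = 5 each; log2 fold change -0.51, limma adjusted p = 0.0587). Tbc1d4, a brake on GLUT4 traffic that insulin releases, was at 9.48 to 12.2 FPKM in db/db and 11.5 to 14.4 FPKM in db/+ hearts. In the side pathways, Tkt, transketolase of the pentose phosphate pathway, was at 2.72 to 3.73 FPKM in db/db and 3.15 to 10.1 FPKM in db/+ hearts, and Gpd2, the mitochondrial glycerol phosphate dehydrogenase, at 1.75 to 2.98 FPKM in db/db and 1.97 to 5.35 FPKM in db/+ hearts. Both were highest in db/+ 3 and db/+ 5, the hearts with the highest adipocyte marker level. Neither was called under any of the 20 alternatives that kept it, the adipocyte markers as a covariate among them. The part of fat in these values was not tested. Gfpt2, of the hexosamine pathway, was at 4.70 to 6.74 FPKM in db/db and 2.48 to 5.58 FPKM in db/+ hearts, and its relative Gfpt1 at 2.20 to 2.82 FPKM in db/db and 2.75 to 3.24 FPKM in db/+ hearts. The remaining named genes, Slc16a1, Ldhd, Pdk3, Pdpr, Gpd1l, Taldo1, Sord and Khk, had log2 fold changes of -0.29 to 0.34 and adjusted p-values of 0.128 to 0.898.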

How the data were processed

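Input RNA and m6A-immunoprecipitated RNA of 5 db/db and 5 db/+ hearts were sequenced. Per the labels' protocols, poly(A) RNA was purified and a stranded KAPA kit was used for the libraries. The submitters' processing notes name, without roles, the build mm9 and the tools HISAT2 2.1.0, Trimmomatic 0.32 and FastQC 0.11.7. Not given in the sources used here are the programs behind the FPKM values and the peaks, and whether counting used strand.

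The expression table deposited by the authors holds FPKM of the 10 input libraries, values that account for library size and transcript length. It had been filtered before deposit, since the larger genotype mean was never below 0.5 FPKM. Low values showed no steps of whole reads, so depth is unknown, and count tests were not used. Positions fit GRCm38, not the build in the notes: start or end of all 38 genes lay within 50 bp of the GRCm38 gene table. They are given from 1, unconverted. The peak lists deposited by the authors, 1 per animal, give a fold (a ratio of pulled-down to input signal) and a p-value for each peak. Repeated lines, with the same start, end and strand in the same heart, were removed, and 141836 of 146953 remained. Overlapping peaks with other ends were kept as separate peaks.

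limma 3.58.1 in R 4.3.3 (lmFit, eBayes with a trend) was run on log2(FPKM + 1), with genes below a mean of 1 FPKM left out. Peaks of different animals were merged into a region if their exon blocks shared 1 bp or more of the same strand. The fold of a region in a heart is the highest among its peaks there. Fisher's exact tests, two-sided, compared hearts with a peak, adjusted over all genes or regions. Both the limma fit and the peak test were tried on simulated data. The simulated peak lists held far fewer genes, many of which differed almost completely between groups. They therefore do not show what the peak test can find in these hearts. Promoter sequences are from RefSeq (GRCm38.p6), with 37 of 38 genes matched, all but Slc2a4.

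The 38 genes, the other lists and the tests were chosen with earlier results of these data known. All 38 genes are named. Of the other pathway genes, those called and the 2 with the smallest p in each group are named, and of the cell type markers those that were called. Regions in all 10 hearts are named, and any in 4 or 5 hearts of one genotype and in no more than 1 of the other. Sequences under the peaks were not analysed here.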

Additional observations from a re-analysis of the deposited data

Results flagged for a closer look

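Among 116 sets of 5 hearts, 1 for each of the 38 genes and the 20 other pathway genes named in each genotype, 8 held a heart set apart from the other 4 by a gap above 0.71 of the whole range. That is 6.9%, where chance gives about 5%, and 3 of the 8 were heart db/+ 5. In db/+ 5, Pfkl stood at 19.3 FPKM, while the other db/+ hearts were at 13.6 to 14.5 FPKM, Mpc1 at 73.5 FPKM, with the others at 95.9 to 104.3 FPKM, and Tbc1d4 at 11.5 FPKM, with the others at 13.8 to 14.4 FPKM. Pdhx stood at 33.9 FPKM in db/+ 1, with the other db/+ hearts at 29.6 to 30.8 FPKM. Pygm stood at 224.6 FPKM in db/+ 2, with the others at 246.9 to 251.9 FPKM, and Slc16a1 at 40.4 FPKM in db/+ 4, with the others at 44.9 to 45.6 FPKM. Among db/db hearts, Dlat stood at 66.3 FPKM in db/db 4, with the others at 68.3 to 68.6 FPKM, and Ugp2 at 87.2 FPKM in db/db 2, with the others at 73.0 to 76.8 FPKM. No explanation was tested for these values.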

How the results depend on the processing

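The number of genes called over all genes, 311, was 137 with the mitochondrial share as a covariate, 160 with the adipocyte markers as one, 72 with the replicate block and 112 to 315 without single hearts. The replicate numbers did not pair the hearts (correlations of same-numbered hearts -0.105 to 0.028), and with the block the number of the 38 genes called lower stayed at 4, while the calls of Fbp2 and Me1 were lost (limma adjusted p = 0.071 for Fbp2 and 0.0675 for Me1). The direction of the calls over all genes depended on scaling: 133 higher and 178 lower with the authors' FPKM, 156 and 109 with medians set equal, 164 and 132 with quantile normalization, 150 and 112 with the same FPKM sum outside the mitochondrial genome. Under all 3 of these scalings 4 of the 38 genes were lower and none was higher. Of the 38, the number lower was 7 with sample weights, 3 with the mitochondrial share as a covariate and 4 to 5 without single hearts. The number higher was 1 with the mitochondrial share (Pgam1), and 0 to 2 without single hearts. Over all 10344 genes tested, 253 were lower and 201 higher with sample weights. With the mitochondrial share, 57 were lower and 80 higher. Regions marked in all hearts numbered 9 with peaks of a fold of at least 2 and 15 to 19 without single lists. Some log2 fold changes that were not called changed sign, that of Pdk4, 0.46 with all hearts, among them, and the cause was not tested. With medians set equal they were 0.025 for Pfkfb1, 0.030 for Aldoa, 0.0081 for Pkm, 0.017 for Mpc2 and 0.032 for Pdha1. With quantile normalization they were 0.027 for Pfkfb1, 0.016 for Aldoa, 0.020 for Pkm and 0.043 for Pdha1. With the equal sum outside the mitochondrial genome they were 0.025 for Pfkfb1, 0.029 for Aldoa, 0.0071 for Pkm, 0.016 for Mpc2 and 0.031 for Pdha1. With the mitochondrial share they were 0.033 for Hk1, 0.035 for Gpi1, 0.11 for Aldoa, -0.28 for Gapdh, 0.023 for Tpi1, 0.040 for Pkm, 0.023 for Mpc2, -0.075 for Dlat, -0.0045 for Dld, -0.0065 for Pdhx, -0.38 for Pdk4, -0.11 for Gys1 and -0.052 for Sord. With the adipocyte markers they were 0.012 for Aldoa, -0.031 for Gapdh and 0.0018 for Mpc2, and with sample weights 0.033 for Aldoa, -0.025 for Gapdh and -0.0019 for Sord. Without db/+ 5 and db/db 5 they were 0.035 for Aldoa, -0.12 for Gapdh, 0.018 for Mpc2, -0.0085 for Dlat, -0.0051 for Dld, -0.020 for Pdk4, -0.021 for Gys1 and -0.013 for Sord. Without single hearts the values ran from -0.052 to 0.091 for Pfkfb1, -0.036 to 0.045 for Aldoa, -0.088 to 0.15 for Gapdh, -0.090 to 0.017 for Tpi1, -0.047 to 0.0035 for Mpc2, -0.039 to 0.031 for Pdha1, -0.0058 to 0.074 for Dlat, -0.0014 to 0.057 for Pdhx, -0.013 to 0.65 for Pdk4, -0.0085 to 0.092 for Gys1, -0.011 to 0.033 for Sord and -0.011 to 0.069 for Khk.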
